A study of Mus musculus with 42 samples.

Results

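The genes described here are 7 members of the hypothalamic system that controls the anterior pituitary. They are the releasing hormones Crh, Trh and Ghrh, the inhibiting hormone Sst, the binding protein Crhbp and the CRH receptors Crhr1 and Crhr2. They are the rows of the expression table whose Ensembl ID carries these symbols. All 7 were found among the 37907 gene IDs of the table. All 7 were also among the 33579 genes that passed the filter described with the methods.

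Neurons whose cell bodies lie in the hypothalamus release these peptides into the portal blood that runs from the median eminence to the pituitary. CRH drives ACTH and through it the release of glucocorticoid, TRH drives TSH and thyroid hormone, GHRH drives growth hormone, and somatostatin restrains growth hormone. Neuroendocrine CRH and TRH cells are best known from the PVN and GHRH cells from the ARC, while the same peptides are also used as transmitters inside the brain. Food deprivation is known to alter several of these axes.

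The mice were adult wild-type C57/BL6 males, with no deletion, transgene or drug in any group. They were fed ad libitum or fasted for 24 hours. RNA came from laser-captured arcuate nucleus (ARC), ventromedial hypothalamus (VMH), dorsomedial hypothalamus (DMH) and paraventricular nucleus (PVN). It was amplified before sequencing, with a kit that does not mark strand. The libraries were 5 fed and 5 fasted for the ARC, 6 and 6 for the VMH, 5 and 4 for the DMH, and 6 and 5 for the PVN. The study's methods describe several nuclei taken from each brain, and the labels do not tie libraries to mice. The p-values below treat libraries as independent. Those from limma, with its SEs and intervals, use a single spread per gene taken over all 42 libraries. They therefore do not measure the spread within the nucleus compared. The exact permutation tests use only the libraries of the nucleus tested. In tissue of this kind, fewer cells of a type and less RNA per cell cannot be told apart.

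The hormones are short peptides cut from longer precursors, and the coding stretches that give the active peptides are shown here to identify the 4 transcripts whose levels the report turns on. They are GENCODE M21 sequences on GRCm38, all from the minus strand. CRH is encoded in exon 2 of Crh (ENSMUSG00000049796, chr3:19693401-19695396), at chr3:19693919-19694044. Capitals mark the glycine codon after the peptide, which is used to amidate its end.
Crh, 42 codons: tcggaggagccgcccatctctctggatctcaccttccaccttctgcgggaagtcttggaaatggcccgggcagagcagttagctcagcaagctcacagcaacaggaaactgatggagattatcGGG
Ghrh (ENSMUSG00000027643, chr2:157329497-157347506) carries the first 30 codons of GHRH in exon 3, at chr2:157333380-157333469. Capitals mark the codon of its first residue, histidine.
Ghrh, 30 codons: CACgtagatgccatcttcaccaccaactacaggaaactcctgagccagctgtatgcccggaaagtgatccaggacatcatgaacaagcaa
Sst (ENSMUSG00000004366, chr16:23889573-23890958) carries the 14 codons of the short form of somatostatin at the end of its coding sequence in exon 2, at chr16:23889732-23889773. Capitals mark the codons of Phe-Trp-Lys-Thr, the core that binds the receptors.
Sst, 14 codons: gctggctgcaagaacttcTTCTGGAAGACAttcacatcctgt
Trh (ENSMUSG00000005892, chr6:92242061-92244650) carries 5 copies of the tripeptide precursor Gln-His-Pro-Gly in exon 3, between chr6:92242710 and chr6:92243111. Capitals mark its 4 codons, and the lower-case codons on each side encode the pair of basic residues at which the precursor is cut. With the lower-case codons included, the 5 stretches were all different in their bases, but copies 2 and 3 had the same bases in capitals.
Trh copy 1: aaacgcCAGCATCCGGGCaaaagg
Trh copy 2: aaacgaCAGCACCCTGGCcgacgt
Trh copy 3: aagcggCAGCACCCTGGCaggcga
Trh copy 4: aagaggCAGCATCCAGGCcggagg
Trh copy 5: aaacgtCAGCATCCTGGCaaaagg
The other members were Crhbp (ENSMUSG00000021680, chr13:95431371-95444924, minus strand), Crhr1 (ENSMUSG00000018634, chr11:104132855-104175523, plus strand) and Crhr2 (ENSMUSG00000003476, chr6:55090049-55133016, minus strand). None of the 7 genes shared exon bases with another annotated gene, and none shared a 50-base stretch with a transcript of another gene.

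Levels are given as RPKM, a read number divided by gene length and library size. The deposited table held no 0. A gene without reads holds a fixed low value instead, called its no-read value here. It was 0.767 to 0.884 RPKM for Crh, 0.676 to 0.755 for Crhbp where seen and 0.420 to 0.497 for Crhr1, depending on the batch of a library. In the remaining batch Crhbp had only an estimate of 0.609 RPKM, and fed PVN replicate 5 lay below it, at 0.536 RPKM. The labels name no batch, and the 3 batches used here were inferred from recurring low values of the table. The no-read value is higher for shorter genes, so low levels cannot be ranked between genes. Where it was not seen in the table it was estimated from exon length, as for Crhr2 in all batches, Crhr1 in batch 2, Crhbp in batch 3 and Ghrh in batches 2 and 3. The depth estimated from the table ranged from 1.33 M to 13.2 M reads. In the DMH, depth was 2.94 M to 5.05 M reads in fed and 4.78 M to 13.2 M reads in fasted libraries. The 3 markers of each dissected nucleus summed to at least 836 RPKM for the ARC (Agrp, Pomc, Npy), 85.3 RPKM for the VMH (Nr5a1, Fezf1, Gpr149), 159 RPKM for the DMH (Ppp1r17, Gpr50, Npvf) and 4459 RPKM for the PVN (Sim1, Oxt, Avp). The same sums did not exceed 56.6, 9.94, 70.7 and 167 in the other nuclei. Of the DMH markers, Ppp1r17 alone did not separate the fasted PVN, where it was 33.9 to 68.5 RPKM. It was 41.2 to 58.8 RPKM in fed and 44.7 to 55.7 RPKM in fasted DMH libraries. The DMH libraries also held the lateral hypothalamic transcripts Hcrt and Pmch, at a summed 269 to 1448 RPKM in fed and 401 to 631 RPKM in fasted mice.

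The first comparison asked where in the hypothalamus each transcript was found. In fed mice 6 of the 7 members differed between the 4 nuclei, all but Crhr2, where 12.4% of all genes tested did (limma F test over all 42 libraries, adjusted p under 0.1). In fasted mice all 7 differed, against 11.9% of all genes. The shares of all genes, here and below, include genes without reads, which can pass the filter through their no-read value. Under a stricter filter of 5 RPKM in 4 libraries, 3813 of 17399 genes differed in fed mice and 3709 in fasted mice. The F test shares of all genes are therefore lowered by genes with few or no reads. Of 84 pairwise tests of the members between nuclei, 52 passed. In fed mice, 3 members differed between ARC and VMH (7.9% of all genes), 5 between ARC and DMH (2.79%), 4 between ARC and PVN (4.13%), 5 between VMH and DMH (5.24%), 5 between VMH and PVN (9.84%) and 4 between DMH and PVN (3.42%). In fasted mice, and for the same pairs, the numbers were 4 (8.91%), 6 (3.21%), 4 (4.19%), 5 (3.94%), 5 (9.24%) and 2 (3%). Crh, Trh and Ghrh each had a nucleus whose libraries all lay above those of the other nuclei in both nutritional states, a pattern held by 1.63% of all genes in fed and 1.75% in fasted mice, and Crhr1 had it in fasted mice alone, in the ARC.

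Crh was a PVN transcript. In fed PVN libraries it lay between 15.5 and 24.1 RPKM with a median of 19.2 (mean 19.8 ± 3.03, SD, n = 6). In the 5 fasted PVN libraries, in order of replicate number, it was 22.9, 25.4, 21.6, 22.9 and 18.6 RPKM (mean 22.3 ± 2.49). These levels stand for an estimated 58 to 168 reads a library, and no library of another nucleus came near them. In the DMH, Crh was 1.55, 1.35, 1.96, 1.52 and 5.55 RPKM in fed and 3.396, 6.84, 5.61 and 3.14 RPKM in fasted mice. The fed mean was 8.30-fold lower in the DMH than in the PVN, and the difference (DMH minus PVN) was -2.73 (SE 0.18) on the log2(RPKM + 1) scale (limma, adjusted p = 2.37e-13). The DMH lay above the ARC in turn (ARC minus DMH -0.66, SE 0.19, adjusted p = 0.0564 in fed; -1.33, SE 0.20, adjusted p = 3.65e-05 in fasted mice). In fed mice DMH replicate 5 was at 5.55 RPKM, and the other DMH libraries, at 1.35 to 1.96 RPKM, lay close to the highest ARC value of 1.33 RPKM. ARC and VMH held almost no Crh. Of their 22 libraries 12 sat at the no-read value, the highest reached 2.17 RPKM, which is an estimated 9 reads, and these nuclei did not differ beyond their spread (ARC minus VMH 0.04, SE 0.18, adjusted p = 1 in fed mice). Markers of the PVN were low in the DMH libraries, with Sim1 at 0.788 to 2.21, Oxt at 9.32 to 33.2 and Avp at 4.50 to 10.45 RPKM, and their part in the DMH level of Crh was not tested.

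Trh was higher than Crh wherever both were seen and followed the same order of nuclei. In fed PVN libraries it lay between 71.3 and 204 RPKM with a median of 114 (mean 128 ± 56.4, n = 6), and in fasted PVN libraries it was 155, 81.1, 90.3, 103 and 93.5 RPKM. In the DMH it was 59.4, 41.8, 42.8, 42.2 and 60.0 RPKM in fed and 64.3, 65.4, 73.4 and 48.9 RPKM in fasted mice. Every PVN library of fed mice thus exceeded every DMH library of fed mice, and the same held in fasted mice, by a narrow margin. The difference (DMH minus PVN) passed in fed mice (-1.27, SE 0.37, adjusted p = 0.0560) and did not in fasted mice (-0.70, SE 0.41, 95% interval -1.53 to 0.13, adjusted p = 0.589). The ARC came next, at 9.49, 11.4, 7.56, 9.23 and 13.0 RPKM in fed and 7.52, 6.42, 10.98, 2.78 and 9.48 RPKM in fasted mice, below the DMH in both states (ARC minus DMH -2.17, SE 0.38, adjusted p = 0.000515, and -3.01, SE 0.41, adjusted p = 6.85e-06). VMH libraries lay between 1.89 and 21.1 RPKM in fed mice (median 4.74) and between 1.54 and 7.04 RPKM in fasted mice (median 2.10). The value of 21.1 RPKM belonged to fed VMH replicate 1, and the other 5 fed VMH libraries did not exceed 7.74 RPKM. ARC and VMH were not separated (ARC minus VMH 0.79, SE 0.37, adjusted p = 0.273 in fed; 1.01, SE 0.37, adjusted p = 0.103 in fasted mice).

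Ghrh was an ARC transcript. In the ARC it was 286, 196, 135, 199 and 177 RPKM in fed mice (mean 199 ± 55.2) and 343, 214, 233, 173 and 245 RPKM in fasted mice (mean 242 ± 63.1). All 10 values lay above the 102 RPKM that was the highest elsewhere. The DMH was at 92.5, 53.3, 102, 33.0 and 43.8 RPKM in fed and 40.7, 34.8, 75.0 and 61.9 RPKM in fasted mice, below the ARC in both states (ARC minus DMH 1.69, SE 0.43, adjusted p = 0.0276, and 2.19, SE 0.46, adjusted p = 0.00414). The PVN was at 14.7 to 55.8 RPKM in fed mice (median 32.7) and at 71.9, 33.2, 24.0, 20.7 and 23.0 RPKM in fasted mice, and did not differ from the DMH beyond the spread (DMH minus PVN 1.04, SE 0.42, adjusted p = 0.266, and 0.70, SE 0.46, adjusted p = 0.695). The VMH held least, at 1.25 to 10.9 RPKM in fed and 1.26 to 13.0 RPKM in fasted mice, with the lowest value of each state under the no-read value estimated for its batch, and differed from the PVN in both states (VMH minus PVN -2.56, adjusted p = 1.38e-05, and -2.74, adjusted p = 9.81e-06). The summed ARC markers in the DMH and PVN libraries were 12.7 to 30.5 RPKM against 836 to 2380 RPKM in the ARC, and their part in the Ghrh of those nuclei was not tested.

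Sst was the most abundant of the 7 transcripts in every nucleus. The ARC held 1539, 1495, 1448, 1383 and 1744 RPKM in fed mice (mean 1522 ± 137) and 2480, 1724, 1690, 2277 and 1675 RPKM in fasted mice (mean 1969 ± 381). The PVN was more uneven, at 562 to 2103 RPKM in fed mice (median 872) and at 886, 1066, 1443, 1618 and 1994 RPKM in fasted mice. ARC and PVN overlapped and did not differ past the threshold (ARC minus PVN 0.61, SE 0.22, adjusted p = 0.179, and 0.53, SE 0.23, adjusted p = 0.334). The VMH lay between 277 and 525 RPKM over its 12 libraries and the DMH between 264 and 592 RPKM over its 9. Both were below the PVN (in fed mice, VMH minus PVN -1.31, SE 0.21, adjusted p = 2.88e-05, and DMH minus PVN -1.54, SE 0.22, adjusted p = 1.33e-05), and they were not separated from each other (VMH minus DMH 0.23, SE 0.22, adjusted p = 0.835).

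**Figure D1:**
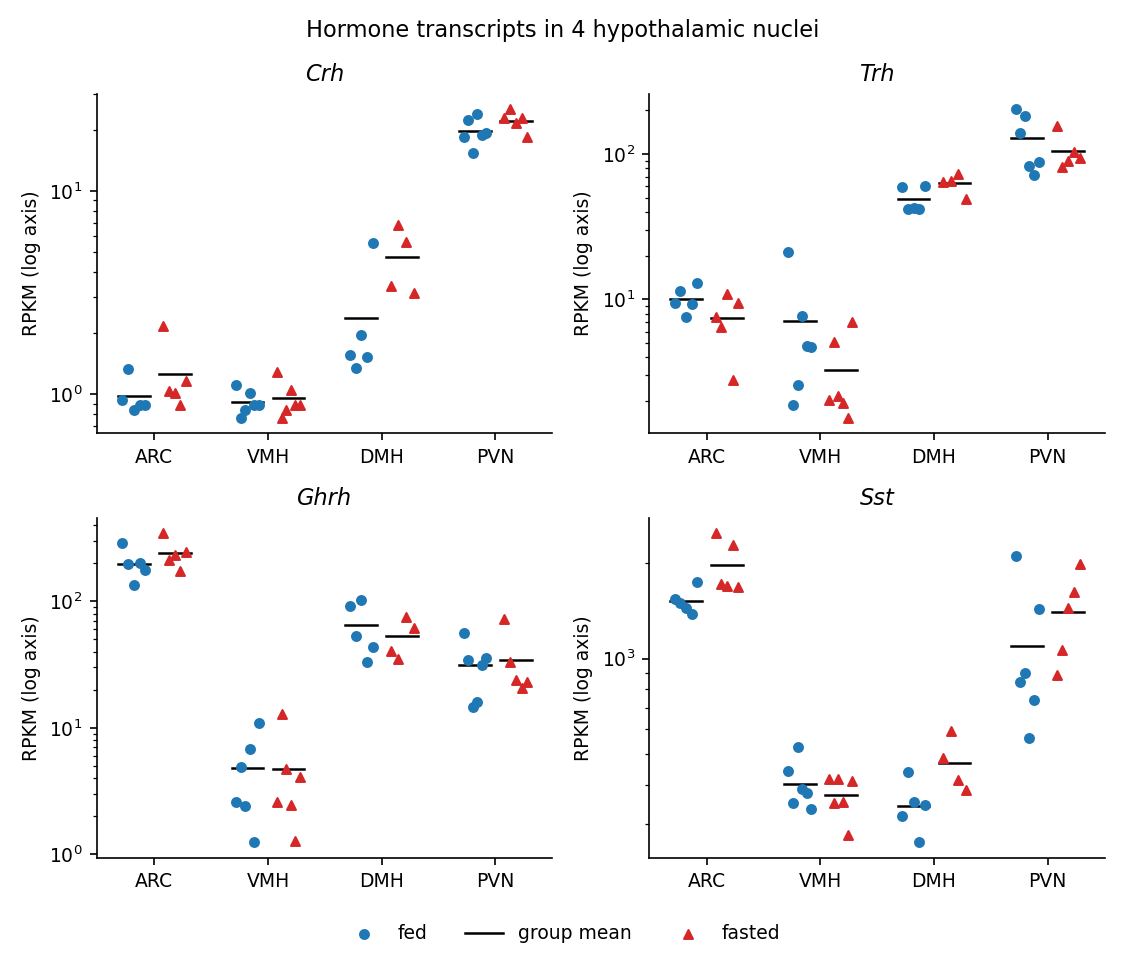
RPKM of the 4 hormone transcripts on logarithmic axes in each library of fed (circles) and fasted (triangles) mice by nucleus, with bars at group means. Crh and Trh were highest in the PVN and Ghrh in the ARC with no overlap in either state, and for Sst the ARC (1383 to 2480 RPKM) overlapped the PVN (562 to 2103 RPKM).

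Crhbp encodes a secreted protein that binds CRH and keeps it from its receptors. It was highest in the DMH, at 4.24, 3.53, 4.44, 5.29 and 4.03 RPKM in fed mice (mean 4.31 ± 0.644) and at 4.87, 6.26, 2.48 and 1.61 RPKM in fasted mice (mean 3.81 ± 2.14). Fed DMH libraries were closely grouped, while the fasted ones spread widely, with the 2 libraries of inferred batch 2 above the 2 of batch 3. The ARC, VMH and PVN had group means of 1.10 to 1.83 RPKM, at least 6 of their 33 libraries sat at the no-read value, and the highest was 3.69 RPKM. In fed mice the DMH differed from each of the other nuclei (ARC minus DMH -1.33, adjusted p = 0.00369, VMH minus DMH -1.30, adjusted p = 0.00142, DMH minus PVN 1.28, adjusted p = 0.00262). In fasted mice the first 2 of these differences passed (-1.12, adjusted p = 0.0310, and -1.04, adjusted p = 0.0311) and that with the PVN did not (0.68, SE 0.29, adjusted p = 0.307). The difference over the fasted nuclei rested on single libraries, since the adjusted p of its F test was 0.0253 with all of them, 0.120 without fasted DMH replicate 1 and 0.169 without replicate 2. In fed mice the nucleus with the most binding protein transcript was therefore not the one with the most Crh. In fasted mice the DMH and the PVN were not separated for Crhbp.

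Crhr1 encodes the receptor with high affinity for CRH, the one that pituitary corticotrophs use. Its highest group means were those of the ARC, at 2.75, 2.31, 2.65, 4.13 and 3.23 RPKM in fed mice (mean 3.02 ± 0.704) and 8.67, 2.54, 4.39, 3.61 and 2.61 RPKM in fasted mice (mean 4.36 ± 2.53). The VMH held at most 0.635 RPKM and at least 7 of its 12 libraries sat at the no-read value, so no reads of Crhr1 were counted in those. The ARC exceeded the VMH (ARC minus VMH 1.40, SE 0.21, adjusted p = 1.12e-05, and 1.74, SE 0.21, adjusted p = 1.85e-07) and the PVN (ARC minus PVN 1.09, adjusted p = 0.000810, and 1.37, adjusted p = 5.78e-05) in both states. The DMH was at 3.93, 1.10, 2.77, 0.952 and 1.33 RPKM in fed and 1.59, 0.660, 1.22 and 1.52 RPKM in fasted mice, and the ARC stood apart from it past the threshold in fasted mice (1.17, SE 0.23, adjusted p = 0.00255) and not in fed mice (0.49, SE 0.22, adjusted p = 0.395). The PVN, where Crh was highest, had Crhr1 at 0.482 to 1.74 RPKM in fed and 0.497 to 1.48 RPKM in fasted mice.

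Crhr2 encodes the second CRH receptor, which has its highest affinity for the urocortins and is known from the VMH. In the VMH it was 0.644 to 1.91 RPKM in fed mice (median 0.814, an estimated 3.4 to 37.3 reads) and 1.04 to 3.09 RPKM in fasted mice (median 1.67). The highest value in the other nuclei was 1.44 RPKM, in fed DMH replicate 5, and no group mean outside the VMH exceeded 0.810 RPKM. Nuclei of fed mice did not differ past the threshold (F test, adjusted p = 0.148), although the VMH and PVN did as a pair (VMH minus PVN 0.52, SE 0.16, adjusted p = 0.0367). In fasted mice the VMH differed from the ARC (ARC minus VMH -0.85, SE 0.17, adjusted p = 0.000561), the DMH (VMH minus DMH 0.84, SE 0.18, adjusted p = 0.00300) and the PVN (VMH minus PVN 0.67, SE 0.17, adjusted p = 0.00738). The ARC, DMH and PVN did not differ from one another past the threshold in either state, with an adjusted p of 0.505 or more.

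**Figure D2:**
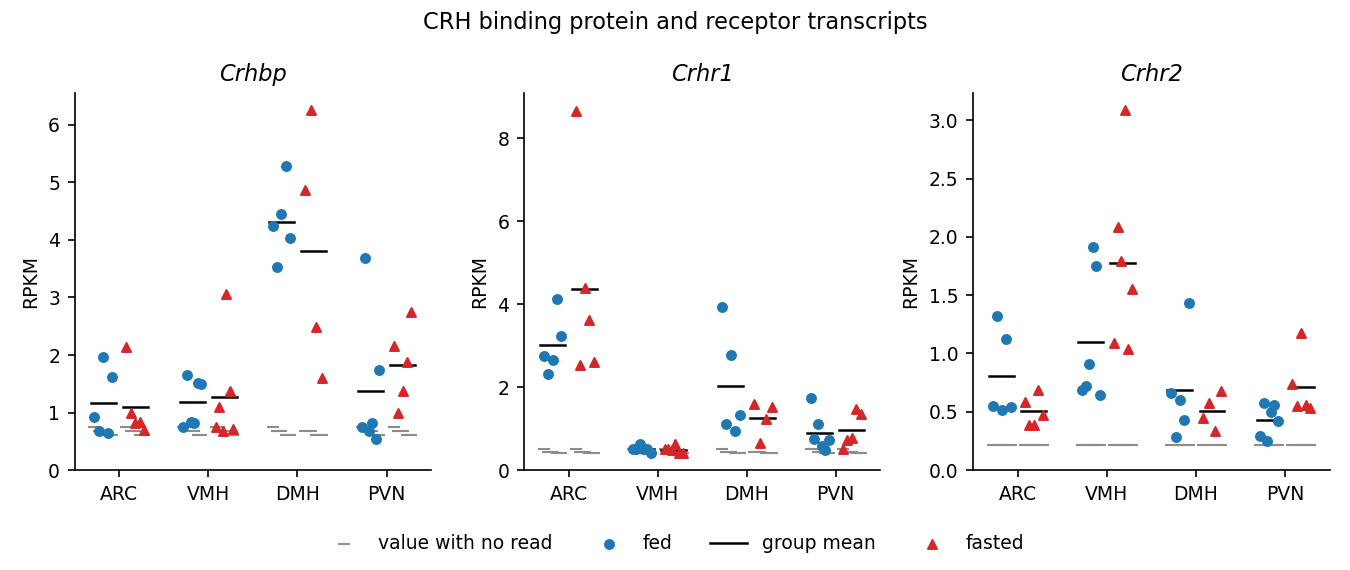
RPKM of Crhbp, Crhr1 and Crhr2 in each library of fed (circles) and fasted (triangles) mice by nucleus, with black bars at group means and grey dashes at the value each library holds for a gene with no read, estimated from exon length for Crhr2, for Crhr1 in batch 2 and for Crhbp in batch 3. Group means were highest in the DMH for Crhbp, in the ARC for Crhr1 and in the VMH for Crhr2. Crhr1 in the VMH lay on or near the no-read value.

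The second comparison asked what a 24-hour fast did to these transcripts in each nucleus. Of 28 tests, 7 members in 4 nuclei, 0 passed the threshold, and 2 had an unadjusted limma p under 0.05, Crh in the DMH and Crhr2 in the VMH. Few genes of any kind passed, 0.0566% of those tested for ARC, 0.131% for VMH, 0.0238% for DMH and 0.0715% for PVN. No member had fed and fasted libraries that did not overlap in any nucleus, a pattern seen in 0.742%, 0.277%, 1.15% and 0.402% of genes. The median change of all genes was 0 in each nucleus to within rounding. Genes without reads hold a fixed value in both states, 5233 of them in all libraries, so this 0 is not a measured baseline. The median of the 7 members was 0.17, -0.02, -0.13 and 0.17 on the log2(RPKM + 1) scale, in the same order of nuclei.

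**Figure D3:**
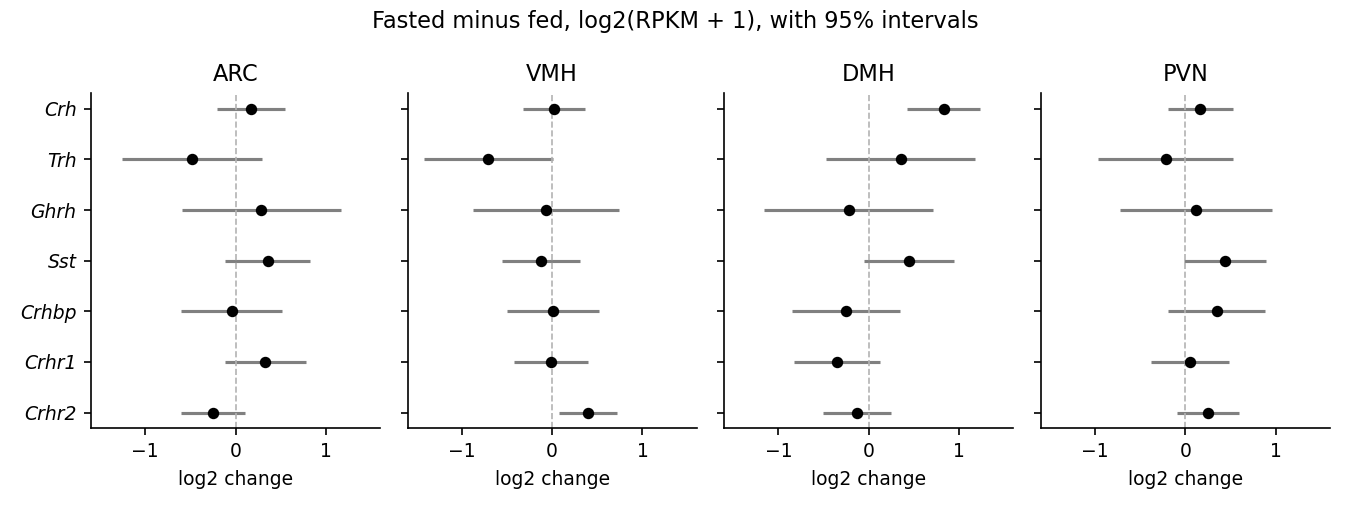
Change of each member on the log2(RPKM + 1) scale, fasted minus fed, in the 4 nuclei, with points at the limma estimate and lines for its 95% interval. The intervals use a spread taken over all 42 libraries, not that of the nucleus alone. Those of Crh in the DMH (0.43 to 1.23) and of Crhr2 in the VMH (0.08 to 0.72) lie above 0. The exact permutation p of these changes within the nucleus was 0.0635 and 0.0909. No change passed the threshold after adjustment over all genes.

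The change furthest from 0 among the 28 was that of Crh outside its main nucleus. In the DMH, 4 of the 5 fed libraries lay between 1.35 and 1.96 RPKM and the 4 fasted libraries between 3.14 and 6.84 RPKM. Fed replicate 5, at 5.55 RPKM, stood apart from the other fed libraries and lay among the fasted values. The change was 0.83 (SE 0.20, 95% interval 0.43 to 1.23, limma p = 0.000176, adjusted p = 0.162), and the exact permutation p over the 9 libraries was 0.0635, where the smallest possible is 0.0159. Without fed replicate 5 the change was 1.10 with an adjusted p of 0.000909, without fasted replicate 4 it was 0.97 with 0.0389, without fasted replicate 1 it was 0.94 with 0.0860, and leaving out any of the other 6 gave an adjusted p between 0.248 and 0.306. Fasted libraries were higher within batch 2 (1.16) and within batch 3 (0.36), with 2 libraries of each state, and batch 1 held no fasted DMH library.

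The reads behind that change were few. An estimated 3 to 5 reads were counted in 4 of the fed DMH libraries, 17 in fed replicate 5, and 22 to 38 in the fasted libraries. Depth was also higher in the fasted DMH libraries, and with depth as a covariate the change was 0.99 and its adjusted p was 0.0976. Over 12 alternative fits, that with depth included and those with left-out libraries aside, the change ran from 0.41 to 1.10. In 11 of these fits it did not pass the threshold. Fed replicate 5 was the shallowest DMH library, at 2.94 M reads. Among PVN markers its Sim1 was 1.80, its Oxt 9.32 and its Avp 5.90 RPKM, within or below the range of the other DMH libraries. Pomc, an ARC marker, was 3.55 RPKM in that library, 10.2 to 15.4 RPKM in the other 4 fed DMH libraries and 3.36 to 5.14 RPKM in the fasted ones. Pomc thus set fed replicate 5 among the fasted libraries, as Crh did, and its change in the DMH was -0.999 (SE 0.31, adjusted p = 0.440). The other ARC markers did not set it apart, with Agrp at 5.20 and Npy at 6.70 RPKM within the 2.07 to 5.66 and 3.73 to 12.7 RPKM of fed DMH libraries, and the 3 markers summed to 15.5 to 29.7 RPKM in fed and 12.7 to 28.2 RPKM in fasted DMH libraries. Pmch was 220 RPKM and Hcrt 49.6 RPKM in that library, at the low end of the 197 to 1003 RPKM and 48.8 to 446 RPKM of the DMH libraries. The part of these markers in the values of Crh was not tested.

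**Figure D4:**
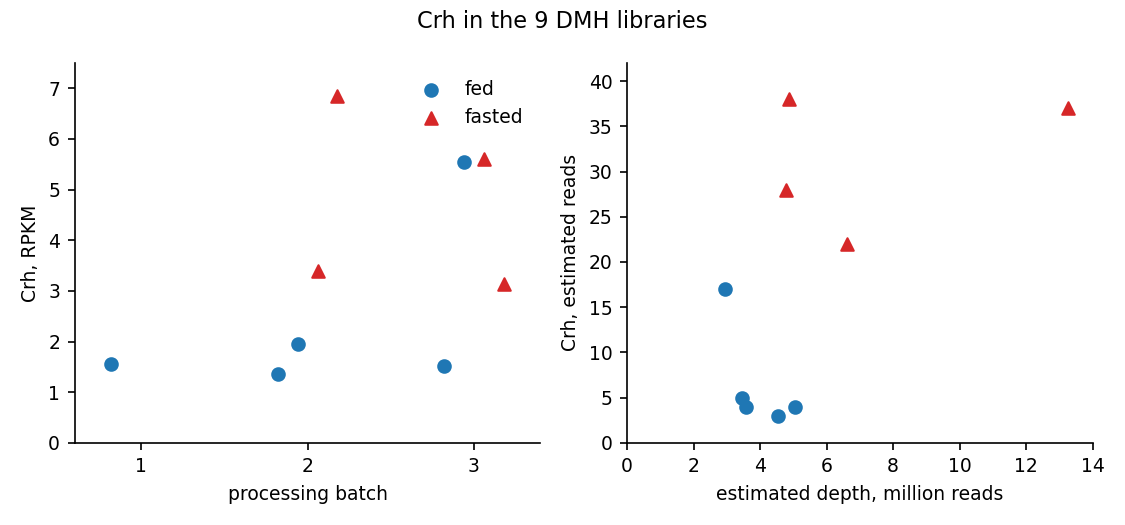
Crh in the 9 DMH libraries of fed (circles) and fasted (triangles) mice. The left shows RPKM by batch, inferred from recurring low values, and the right shows estimated reads against estimated library depth. Fed replicate 5 (5.55 RPKM, 17 reads) lies apart from the other 4 fed libraries, which have 3 to 5 reads, and the 4 fasted libraries have 22 to 38 reads.

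In the PVN, where most Crh was found, the change with fasting was 0.17 (SE 0.18, 95% interval -0.20 to 0.53, adjusted p = 1), with 4 of 5 fasted libraries above the fed mean. In the ARC it was 0.17 (95% interval -0.21 to 0.55) and in the VMH 0.02 (-0.32 to 0.37), both with an adjusted p of 1, in libraries of which 12 of 22 had no read of Crh. The fasting changes of Crh were not shown to differ between the 4 nuclei (limma interaction, unadjusted p under 0.05, adjusted p = 1). Of the 7 members, 0 passed the interaction test, in which 0.00596% of all genes did, and Crhr2 was the other member with an unadjusted p under 0.05.

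Trh showed no common direction. Its change was -0.48 (SE 0.38) for ARC, -0.71 (SE 0.35) for VMH, 0.35 (SE 0.41) for DMH and -0.22 (SE 0.37) for PVN, and the adjusted p was 0.617 in the VMH and 0.982 or more elsewhere. In the PVN the interval of -0.96 to 0.53 leaves room for a change of either sign. In the VMH the estimate depended on fed replicate 1, without which it was -0.35. Fasted VMH libraries lay below the fed mean of the log2 values in 5 of 6, and the exact permutation p was 0.201.

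Ghrh changed by 0.29 (SE 0.43) in the ARC, where 4 of 5 fasted libraries lay above the fed mean. The 95% interval of -0.59 to 1.17 was wide, but its spread is taken over all nuclei and not the ARC alone. The changes of Ghrh in the VMH, DMH and PVN were -0.07, -0.22 and 0.12, all with an adjusted p of 1.

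Sst was higher in fasted mice in 3 nuclei by similar amounts that did not pass after adjustment. In the ARC the change was 0.36 (SE 0.23, adjusted p = 0.869), with all 5 fasted libraries above the fed mean, an exact permutation p of 0.0317 and differences of 0.69, 0.21 and 0.33 within the 3 batches. In the DMH it was 0.44 (SE 0.25, adjusted p = 0.871), with all 4 fasted libraries above the fed mean, an exact permutation p of 0.0476 and differences of 0.44 and 0.40 within batches 2 and 3. In the PVN it was 0.44 (SE 0.22, adjusted p = 0.943), with an exact permutation p of 0.260 and differences of -0.59, 0.80 and 0.80 within batches 1, 2 and 3. In the VMH it was -0.12 (SE 0.21, adjusted p = 1). The permutation p-values are unadjusted, and 28 such tests were made, with a smallest p among them of 0.0317.

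Of the binding protein and receptors, Crhr2 in the VMH was closest to the threshold, at 0.40 (SE 0.16, 95% interval 0.08 to 0.72, limma adjusted p = 0.517). Fasted libraries lay above the fed mean in 5 of 6, the exact permutation p was 0.0909, and the differences within the 3 batches were 0.58, 0.52 and 0.10. In the PVN, the 5 fasted libraries had Crhr2 at 0.739, 0.553, 1.17, 0.559 and 0.534 RPKM against 0.2501 to 0.572 RPKM in the 6 fed ones (change 0.25, SE 0.17, adjusted p = 1, exact permutation p = 0.0390). Crhr1 changed by 0.33 in the ARC (SE 0.22, adjusted p = 0.886), and by 0.09 without fasted replicate 1, the library at 8.67 RPKM. Crhbp changed by -0.25 in the DMH (SE 0.29), with opposite signs within batch 2 (0.39) and batch 3 (-0.90).

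Genes that work around these hormones were taken from 5 lists, of which 47 genes were tested. The effect of fasting passed the threshold for 1 of them in the ARC (0.0566% of all genes) and for 0 in the VMH (0.131%), DMH (0.0238%) and PVN (0.0715%). The gene in the ARC was Ghr, the growth hormone receptor through which growth hormone feeds back on the hypothalamus, at 10.5 RPKM in fed and 21.1 RPKM in fasted mice (change 0.94, SE 0.15, adjusted p = 0.00255). It did not pass in a fit of the ARC libraries alone (adjusted p = 0.365). Ghr was 1 of 12 genes in the list of receptors of these hormones. Ghsr, the ghrelin receptor (6.35 and 13.98 RPKM in fed and fasted ARC, adjusted p = 0.263), and Trhr, the TRH receptor (7.30 and 2.78 RPKM in fed and fasted VMH, adjusted p = 0.103), did not pass. Trhr was also lower in the fasted ARC (3.61 and 1.51 RPKM in fed and fasted mice, limma adjusted p = 0.453). Its change was 0.29 in the DMH and -0.05 in the PVN. Fkbp5, a target of the glucocorticoid receptor, was 2.16 RPKM in fed and 6.78 RPKM in fasted PVN (change 1.30, SE 0.30, adjusted p = 0.140). In the ARC it was 2.94 RPKM in fed and 7.04 RPKM in fasted mice (change 1.13, SE 0.32, limma adjusted p = 0.290). Its change was 0.10 in the VMH and 0.41 in the DMH.

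Between the nuclei of fed mice, 35 of the 47 genes differed, where 12.4% of all genes did. Among other releasing and inhibiting ligands 5 of 10 did, with the widest ranges in Avp and Oxt, which were at 2113 and 4066 RPKM in the PVN, and in Adcyap1, the peptide PACAP, at 98.2 RPKM in the VMH. Of the receptors 8 of 12 differed, led by Sstr3 in the VMH (9.53 RPKM), Ghsr in the ARC (6.35 RPKM) and Sstr2 in the PVN (11.7 RPKM), the first and last of these being somatostatin receptors. All 7 genes of prohormone processing and peptide breakdown differed, with the widest ranges in Pcsk1 and Pcsk2, the convertases that cut hormone precursors, and Trhde, the enzyme that degrades TRH. Pcsk1 was highest in the PVN (39.7 RPKM). Pcsk2 was lowest in the ARC (17.2 RPKM) and within the spread between PVN and VMH (39.8 and 38.3 RPKM), and Trhde was at 7.86 RPKM in the PVN and 6.81 RPKM in the DMH against 2.06 RPKM in the ARC and 2.31 RPKM in the VMH. Of the genes of hormone feedback 6 of 9 differed, with the widest ranges in Dio2, which makes active thyroid hormone, highest in the ARC (6.56 RPKM), in Igf1r, highest in the PVN (16.3 RPKM), and in Thrb, a thyroid hormone receptor, at 15.4 RPKM in the ARC, 14.1 RPKM in the VMH and 6.91 RPKM in the DMH. All 9 transcription factors of neuroendocrine neurons differed. Sim1 and Otp, which PVN neurons need in development, were highest in the PVN (19.1 and 32.7 RPKM) and Isl1 in the ARC (17.1 RPKM), where the PVN mean of Otp held 1 library at 110 RPKM and its median was 17.4 RPKM.

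The genes whose pattern over the 42 libraries was most like each member were found by Pearson's r of log2 values among 27713 genes with a symbol. The libraries share nuclei, batches and depths, so r is given as a description. For Crh they were Sim1 (r = 0.97, Spearman's rho 0.80), Uncx (0.95, 0.75) and Tns1 (0.93, 0.77). For Trh they were Elavl2 (0.93, 0.89), Ebf3 (0.92, 0.80) and Foxp2 (0.90, 0.89), and for Ghrh Asb4 (0.95, 0.94), Gabre (0.93, 0.93) and Dgkk (0.91, 0.92). Sst was most like Gpx3 (0.92, 0.89), Eef1a1 (0.89, 0.86) and Ghr (0.87, 0.87). The binding protein and receptors had weaker partners, which were Grp (0.78), Npvf (0.75) and Tbc1d24 (0.74) for Crhbp, Htr3b (0.84), Shisal2b (0.84) and Ghsr (0.84) for Crhr1, and Adamts9 (0.70), Nkd2 (0.70) and Nr5a1os (0.70) for Crhr2. After the group means were taken out, the r of Crh with Sim1 was 0.09 and that of Ghrh with Asb4 was 0.47, both over the same 42 libraries.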

How the data were processed

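RNA-seq libraries of laser-captured nuclei were sequenced by the authors as single-end reads and mapped to GRCm38. The submitters' processing notes name TopHat2 2.0.11, Cufflinks 2.2.1, edgeR and limma. The values the authors deposited are RPKM, with a count added to the reads (a mean of 5 per library) and batch means removed, as read from the table. Batches (10, 16 and 16 libraries), no-read values and depth were inferred from recurring low values, and 97.8% to 98.9% of low values lay whole reads above them (tolerance 0.05). In batch 3, 1 Crhbp value and 2 Ghrh values lie below the no-read value estimated from exon length, which is approximate. Depth and read numbers are estimates and cover no amplification error.

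Values were set to log2(RPKM + 1), and a gene entered the fit if 4 or more of the 42 libraries reached 1 RPKM. The no-read value of short genes can exceed 1 RPKM, so genes without reads could pass, as Prlh did. limma 3.58.1 (R 4.3.3) was fitted with 8 group means, no covariate and an intensity trend, in place of the study's count model. Tests were two-sided, with Benjamini-Hochberg adjustment over 33579 genes and a threshold of 0.1. Fold changes understate the change of low genes. Exact permutation tests (scipy 1.17.1) were two-sided on log2 values. The fit was also run on simulated data, with independent normal errors of the same spread per gene in all groups. That run could not test unequal spread between nuclei, values at the no-read value or mice shared between libraries. Alternatives were pseudocounts of 0.1 and 5, filters, scaling, weights, blocks, batch, depth and left-out libraries. The members and lists were chosen with earlier results of these data known. The 7 members were named throughout. List genes were named where they passed a fasting test, and otherwise as the 3 of each list with the widest range between fed nuclei. Ghsr, Trhr, Fkbp5 and, among the markers, Pomc and Ppp1r17 were singled out after their values were seen.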

Additional observations from a re-analysis of the deposited data

Results flagged for a closer look

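Each of the 56 sets of values, 7 members in 8 groups, was searched for a library whose gap to its nearest neighbour was a large part of the range of its group (Dixon's ratio at the 95% level). For normally distributed values chance flags about 1 in 20 groups, so 2.8 of 56, and 9 were found. RPKM values bounded below by the no-read value need not be of that kind, so no excess over chance is drawn from these counts. Of Crh, fed DMH replicate 5 was at 5.55 RPKM against 1.35 to 1.96 in the other fed DMH libraries, fasted ARC replicate 1 was at 2.17 against 0.884 to 1.16, and fed ARC replicate 2 was at 1.33 against 0.842 to 0.942. Of Trh, fed VMH replicate 1 was at 21.1 RPKM against 1.89 to 7.74. Of Ghrh, fasted VMH replicate 2 was at 13.0 RPKM against 1.26 to 4.75, and fasted PVN replicate 1 was at 71.9 against 20.7 to 33.2. Of Crhbp, fasted ARC replicate 1 was at 2.14 RPKM against 0.704 to 0.999, and fasted VMH replicate 4 was at 3.06 against 0.676 to 1.37. Of Crhr1, fasted VMH replicate 4 was at 0.635 RPKM against 0.420 to 0.497. Fasted ARC replicate 1 and fasted VMH replicate 4 each appear for a pair of members.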

How the results depend on the processing

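Amplified RNA from small samples, few reads for Crhbp, Crhr1, Crhr2 and for Crh outside the PVN, batches inferred from the values, and libraries not tied to mice limit these results. In the ARC, VMH and PVN, 0 members passed a fasting test under each alternative run, of which the fits of a single nucleus gave no value for Crhbp and Crhr1 in 1 nucleus each and for Crhr2 in 3. In the DMH 1 member, Crh, passed with depth as a covariate, and the count lay between 0 and 1 when single libraries were left out. The count of members that differed between nuclei stayed between 6 and 7 in fed and between 6 and 7 in fasted mice when single libraries were left out. It was 4 in each under the stricter filter (5 RPKM in 4 libraries), which tests 4 members. In fed mice Crhr2 passed with a pseudocount of 0.1 (adjusted p = 0.0721).

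Some small changes turned sign. That of Crhbp in the VMH was 0.01, and -0.028 with a pseudocount of 0.1, -0.0042 with equal medians and -0.0085 with the no-read value subtracted, an alternative chosen after seeing the data. Ghrh was 0.034 in the DMH with depth as a covariate and -0.039 in the PVN with array weights. With single libraries left out, the change of Crhbp ran from -0.20 to 0.082 in the ARC, from -0.17 to 0.081 in the VMH and from -0.49 to 0.0054 in the DMH, that of Ghrh from -0.38 to 0.18 in the VMH and from -0.18 to 0.31 in the PVN, that of Crhr1 from -0.044 to 0.0045 in the VMH and from -0.039 to 0.16 in the PVN, that of Crh in the VMH from -0.024 to 0.052, and that of Crhr2 in the DMH from -0.21 to 0.016. The cause was not tested. Over all genes, the count past the threshold moved most with array weights (56 in place of 8 in the DMH, 141 in place of 24 in the PVN, 40 in place of 19 in the ARC, 16 in place of 44 in the VMH) and in fits of a single nucleus (0, 1, 0 and 3 for ARC, VMH, DMH and PVN, with 1409, 1389, 1246 and 1381 genes at an unadjusted p under 0.05). It was also 8 for ARC with a pseudocount of 0.1, 41 for PVN with a pseudocount of 5, 24 for VMH with a batch term, 5 for DMH under the stricter filter and 16 for DMH with the no-read value subtracted. Whether the replicate number pairs libraries of a mouse could not be decided. Same-numbered libraries of different nuclei and the same state had a median correlation of deviations of -0.04, and 0 of 58 pairs exceeded 0.1. For same-numbered libraries of different nuclei and different states, which share no mouse, the median was -0.05. Batch means had been removed from the values, which lowers such correlations within a batch. With the replicate block, 0 of 7 members passed in each fasting test (Crh in the DMH 0.85, adjusted p = 0.251), 6 differed between nuclei of fed and 7 of fasted mice, and 13, 17, 6 and 24 genes passed in the ARC, VMH, DMH and PVN. No call of a member changed with the block.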
